A study of Mus musculus with 6 samples.

Results

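The genes described here are the innate sensors of microbes and damage, the inflammasome genes built around some of them, and the caspases, measured in fibrotic mouse kidney. They were chosen by name from the probe annotation: every symbol beginning with Tlr, Nlrp, Naip or Casp and a digit, together with Nlrc4, Nod1, Nod2, Aim2, Pycard, Myd88, Ticam1, Ticam2, Tirap, the Irak genes, Cd14 and Ly96. The rule used no measured value, but it was chosen with earlier results of these data known. It found 54 of the 20416 genes measured, on 502 probe sets, each a group of array probes for 1 stretch of a gene. Irak4, which the rule also names, was not analysed here, nor were the executioner caspases other than Casp6.

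Kidneys of 2 groups of mice were profiled on Affymetrix gene arrays with 3 arrays each. The CBAxB6-TGFbeta group is on a mixed CBA and B6 background and the B6-TGFbeta group on the B6 background. Both carry the label of induced renal fibrosis, with transforming growth factor beta as the inducer, and the mice are described as littermate cohorts matched for age and sex. The genotype label adds KO to the CBAxB6-TGFbeta arrays and WT to the B6-TGFbeta arrays without naming a deleted gene, so no targeted gene could be checked. The sources used here do not give the ages or how the factor was delivered. No mice without the factor were among the arrays, so a difference between the backgrounds at rest and a difference in their response cannot be told apart. The study asked why inbred strains differ in their sensitivity to this form of fibrosis.

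Toll-like receptors sit in the cell surface or endosome membrane and bind microbial molecules or products of injured tissue. Through the adaptors Myd88 and Ticam1 and the Irak kinases they activate NF-kB and the transcription of inflammatory genes. Inflammasome sensors such as Nlrp3 and Aim2 lie in the cytosol and, through the adaptor Pycard, activate caspase-1, which matures interleukin-1 beta and opens gasdermin pores. Other caspases carry out apoptosis, and many sensors of this kind are found in macrophages as well as in kidney epithelium.

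Among the 54 members, 10 were higher and 1 was lower in CBAxB6-TGFbeta kidneys at an adjusted p under 0.05, and 43 did not pass (limma moderated test over all 20416 genes, Benjamini-Hochberg adjustment). The 10 were the receptors Tlr2 and Tlr13, the co-receptor Cd14, the kinase homologue Irak3, the sensors Aim2, Nlrp3 and Nlrp10, the caspases Casp4 and Casp12, and Casp8ap2, whereas Nlrp6 was lower. The passing members make up 20.4% of the list, beside 7.65% of all genes that passed in either direction, 3.08% that passed as higher and 4.57% that passed as lower. At an unadjusted p under 0.05 there were 18 members, or 33.3%, beside 21.5% of all genes. The values of the 3 CBAxB6-TGFbeta arrays lay wholly above or wholly below those of the 3 B6-TGFbeta arrays for 18 members, or 33.3%, beside 26.8% of all genes. The median difference, CBAxB6-TGFbeta minus B6-TGFbeta, was 0.172 log2 units over the members and 0.018 over all genes, and 39 members (72.2%) had a positive difference, beside 53.9% of all genes. Without the dimmest 25% of genes the median of the 31 remaining members was 0.043, and 58.1% of them were positive, beside 49.6% of the genes kept. With probe sets polished again, the median over the members was 0.093 without CBAxB6-TGFbeta replicate 5, 0.112 without replicate 6, 0.107 without B6-TGFbeta replicate 1, and 0.113 with replicate 3 as the lone array of B6-TGFbeta. Tlr2, Cd14, Casp4 and Tlr13 were the 4 passing members that differed by at least 1 log2 unit, that is, by at least a doubling.

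**Figure D1:**
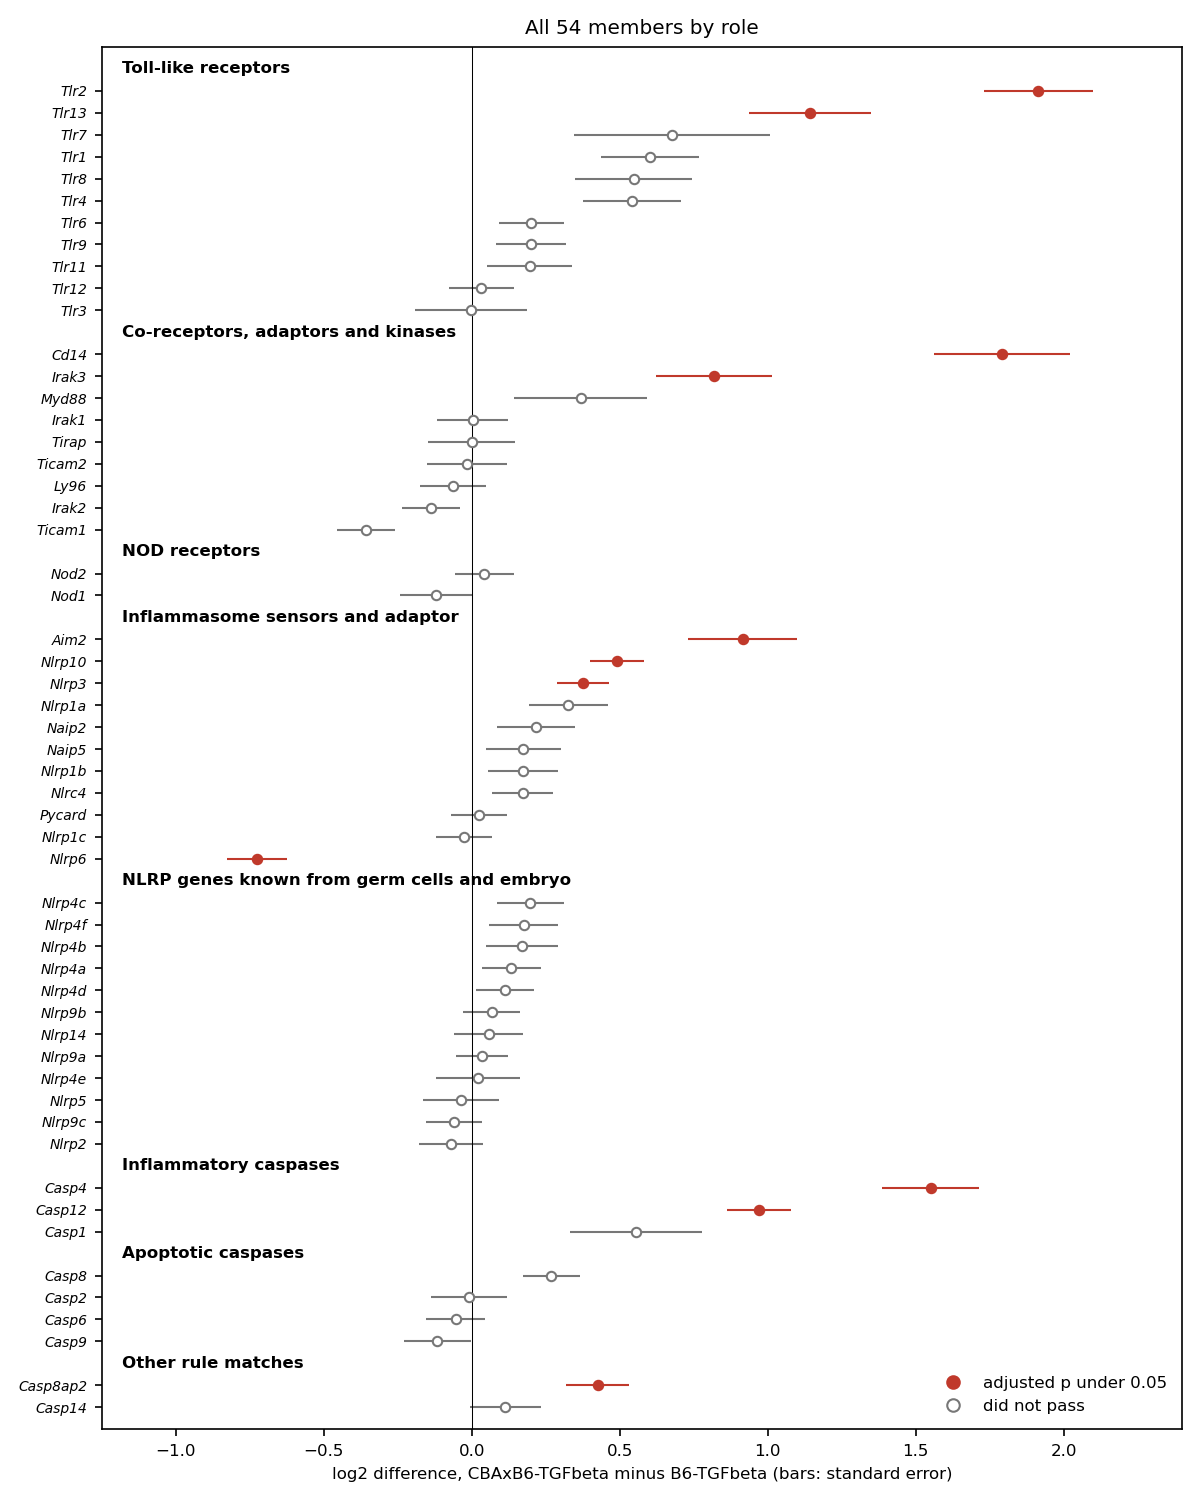
Log2 difference in intensity, CBAxB6-TGFbeta minus B6-TGFbeta, for each of the 54 members, grouped by role, with bars of 1 standard error from the limma fit (3 arrays each). Filled red points passed an adjusted p under 0.05: 10 lie right of 0 and Nlrp6 lies left of it.

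The arrays were alike in brightness, with median log2 intensities of 7.268 to 7.327 on the CBAxB6-TGFbeta arrays and 7.323 to 7.339 on the B6-TGFbeta arrays. Correlations over probe sets were 0.953 to 0.963 within CBAxB6-TGFbeta, 0.965 to 0.972 within B6-TGFbeta and 0.946 to 0.954 between the groups. Proximal tubule markers, which define the labelled tissue, had summed intensities of 11791 to 18897 on CBAxB6-TGFbeta arrays, against 33949 to 37833 on B6-TGFbeta arrays. On B6-TGFbeta replicate 2, 12 markers of fat and adrenal gland, tissues that lie beside the kidney, summed to 10089.7, against 1379 on replicate 1 and 741 on replicate 3. The range on the CBAxB6-TGFbeta arrays was 834 to 1271. Star, a steroid-making gene of the adrenal gland, read 5.86, 6.44 and 5.96 log2 units on CBAxB6-TGFbeta arrays, against 8.90, 10.74 and 6.46 on B6-TGFbeta arrays. Replicates 1 and 2 of B6-TGFbeta thus stand apart in this marker, and the comparison was therefore also made with replicate 3 standing alone for B6-TGFbeta.

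With replicate 3 standing alone for B6-TGFbeta, none of the members passed the limma test. There were 13 members at an unadjusted p under 0.05, and 40 genes passed in all. It shares its 3 CBAxB6-TGFbeta arrays with the comparison of 6 arrays, so likeness in size is partly built in. The differences, with those from 6 arrays in brackets, were 2.24 log2 units for Tlr2 (1.91), 1.81 for Cd14 (1.79) and 1.40 for Tlr13 (1.14). They were 1.28 for Casp4 (1.55), 1.03 for Casp12 (0.97) and -0.66 for Nlrp6 (-0.73). For Aim2 the value was 1.05 (0.92), for Irak3 0.85 (0.82) and for Casp8ap2 0.62 (0.43). For Nlrp10 it was 0.55 (0.49) and for Nlrp3 0.31 (0.38). In that comparison the lone array is assumed to vary like the others. Leaving out each array in turn and summarising each gene's probe sets again by median polish gave 2 passing members without CBAxB6-TGFbeta replicate 4, 0 without replicate 5 and 5 without replicate 6. It gave 0 without any 1 of B6-TGFbeta replicates 1, 2 and 3, where 57 to 77 of all genes passed and 13 to 16 members had an unadjusted p under 0.05. Without CBAxB6-TGFbeta replicate 5, 16 members had one and 117 genes passed. With each gene taken as the mean of its probe sets, the counts were 9, 10 and 10 without CBAxB6-TGFbeta replicates 4, 5 and 6, and 6, 10 and 5 without B6-TGFbeta replicates 1, 2 and 3. Tlr2, Cd14, Casp4, Casp12 and Tlr13 passed in all 6 of these mean-based fits. The polished and mean-based fits with an array left out are named below as the polished and the averaged fits.

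Promoter sequence is shown for Casp4, Nlrp3 and Nlrp6, that is, a caspase, a sensor that was higher and the sensor that was lower. All of them held a motif match, so they do not stand for the other members. Their windows end at each gene's outermost annotated start. Windows of Tlr13, Irak3 and Casp8ap2 also end at such a start, but held no match to any motif searched and are not shown. The window of Casp12, the other passing caspase, does not end at such a start and held no match either. Each sequence shown is the 250 bases before the start, from RefSeq on build GRCm38.p6, written 5' to 3' on the plus strand. Capitals mark matches to a kappaB motif, the site of NF-kB, in Casp4 and Nlrp3, and to the AP-1 motif in Nlrp6.
Casp4 (chr9:5308599-5308848): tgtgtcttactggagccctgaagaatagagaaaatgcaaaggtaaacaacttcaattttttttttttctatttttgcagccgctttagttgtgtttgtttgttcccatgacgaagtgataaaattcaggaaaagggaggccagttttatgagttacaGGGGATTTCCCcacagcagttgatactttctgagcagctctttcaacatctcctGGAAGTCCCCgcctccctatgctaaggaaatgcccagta
Nlrp3 (chr11:59541319-59541568): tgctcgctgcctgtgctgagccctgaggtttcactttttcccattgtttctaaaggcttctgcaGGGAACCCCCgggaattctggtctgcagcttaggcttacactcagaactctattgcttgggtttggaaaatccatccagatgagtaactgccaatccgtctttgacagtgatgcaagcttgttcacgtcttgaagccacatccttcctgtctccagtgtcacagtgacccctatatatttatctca
Nlrp6 (chr7:140920652-140920901): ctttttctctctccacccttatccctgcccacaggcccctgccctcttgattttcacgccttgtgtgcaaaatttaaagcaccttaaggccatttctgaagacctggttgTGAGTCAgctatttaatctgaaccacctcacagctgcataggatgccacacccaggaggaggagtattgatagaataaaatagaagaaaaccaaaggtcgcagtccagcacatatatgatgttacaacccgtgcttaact

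Windows of this length were searched on both strands at 12 starts of 9 of the 11 passing members, all those used from the promoter table. The motifs were the kappaB consensus, AP-1 (TGANTCA), PU.1 (GAGGAAGT), the site of a macrophage factor, and ISRE (GAAA, any 2 bases, GAAA), the site of interferon response factors. The kappaB consensus was matched at 3 of the 9 genes, against 7.25% of 32851 mouse promoter windows. A gene counted where any of its starts matched, whereas the percentage counts single windows, so these are unlike units. In Casp4 the consensus was matched 93 to 84, 92 to 83 and 39 to 30 bases before the outermost start, of which the first and the second overlap. In Nlrp3 the match lay 186 to 177 bases before the outermost start, and the window of its other start held none. Tlr2 held overlapping matches 173 to 164 and 172 to 163 bases before the start used. A narrower form (GGGA, any 2 bases, TTCC) was searched first, had no match in these genes and is held by 1.21% of all windows, so the consensus was taken after the sequences had been seen. AP-1 was matched at Nlrp6, as TGAGTCA 140 to 134 bases before the start, against 6.75% of all windows. PU.1 was matched at Aim2, 113 to 106 bases before the start, against 2.44%, and ISRE at none of them, against 2.98%. A match describes letters and does not show binding.

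Of the 11 Toll-like receptors, 2 rose in CBAxB6-TGFbeta kidneys and 9 did not pass. Their median difference was 0.54 log2 units and 10 of the 11 differences were positive. Tlr2 binds bacterial lipoproteins together with Tlr1 or Tlr6. It read 9.23, 9.21 and 8.52 log2 units in CBAxB6-TGFbeta kidneys, against 7.11, 7.17 and 6.93 in B6-TGFbeta kidneys. The groups lay far apart, with replicate 6 the lowest of the CBAxB6-TGFbeta arrays. The difference was 1.91 log2 units (SE 0.18), 3.77-fold, with an adjusted p of 0.000696 (limma). Tlr13 senses bacterial ribosomal RNA in mouse endosomes. It read 7.20, 6.38 and 6.55 in CBAxB6-TGFbeta kidneys, against 5.58, 5.80 and 5.32 in B6-TGFbeta kidneys, and replicate 4 was the highest without overlap between the groups. The difference was 1.14 log2 units (SE 0.21), 2.21-fold, with an adjusted p of 0.0121 (limma). In the polished fits Tlr2 passed without CBAxB6-TGFbeta replicate 4 or 6, at 1.81 and 2.29 log2 units. Tlr13 passed without replicate 4, at 0.85. In the other polished fits neither passed, with adjusted p up to 0.0728 for Tlr2 and 0.199 for Tlr13 (limma). As in every tissue sample, fewer cells of a type and less RNA per cell cannot be told apart.

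Several receptors had positive differences that did not pass the test over all genes. Tlr1, the partner of Tlr2, lay just outside the threshold with 0.60 log2 units (SE 0.17, adjusted p = 0.0597, limma). Tlr4, the receptor for lipopolysaccharide, had 0.54 log2 units (SE 0.17) with an adjusted p of 0.0867 (limma) and all 8 of its probe sets positive. Tlr8 is measured by a single probe set and overlapped between the groups at 0.55 log2 units (SE 0.20, adjusted p = 0.140, limma). Tlr7, a receptor for single-stranded RNA, read 6.78, 5.36 and 5.37 in CBAxB6-TGFbeta kidneys, against 4.94, 5.31 and 5.23 in B6-TGFbeta kidneys. Replicate 4 stood far above the other 5 arrays, and the difference of 0.68 log2 units (SE 0.33) had an adjusted p of 0.284 (limma). Tlr6, Tlr9, Tlr11 and Tlr12 differed by 0.03 to 0.20 log2 units. Tlr3, a receptor for double-stranded RNA, had the lowest difference of the family at -0.002 and read 7.21, 7.30 and 7.57 in CBAxB6-TGFbeta kidneys, against 7.08, 7.82 and 7.18 in B6-TGFbeta kidneys. Tlr1 and Tlr6 are neighbours in the genome, as are Tlr7 and Tlr8.

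Of the 9 co-receptors, adaptors and kinases below the receptors, 2 rose, none fell and 7 did not pass. Cd14 hands lipopolysaccharide and lipoproteins to Tlr4 and Tlr2. It read 8.02, 8.44 and 7.39 log2 units in CBAxB6-TGFbeta kidneys, against 6.35, 6.06 and 6.07 in B6-TGFbeta kidneys. All 3 CBAxB6-TGFbeta arrays were above every B6-TGFbeta array, and replicate 6 was the lowest of them, as for Tlr2. The difference was 1.79 log2 units (SE 0.23), 3.46-fold, with an adjusted p of 0.00250 (limma). Irak3 lacks kinase activity and is known as a brake on receptor signalling in macrophages. It read 8.15, 7.58 and 7.25 in CBAxB6-TGFbeta kidneys, against 6.94, 6.78 and 6.80 in B6-TGFbeta kidneys, with replicate 4 the highest. The difference was 0.82 log2 units (SE 0.20), 1.76-fold, with an adjusted p of 0.0376 (limma). Cd14 passed in the polished fit without CBAxB6-TGFbeta replicate 6 alone, at 2.11 log2 units, and had adjusted p up to 0.120 in the other polished fits (limma). Irak3 passed in none of the polished fits, with adjusted p up to 0.273 (limma). In the averaged fits it missed the threshold without B6-TGFbeta replicate 3, at 0.74 log2 units with an adjusted p of 0.0830 (limma).

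None of the adaptors passed limma's test, and Ticam1 alone among them had an unadjusted p under 0.05. Myd88, used by nearly every Toll-like receptor, read 8.62, 8.11 and 7.55 in CBAxB6-TGFbeta kidneys, against 7.63, 7.85 and 7.69 in B6-TGFbeta kidneys. Its groups overlapped, because replicate 6 of CBAxB6-TGFbeta was the lowest of all 6 arrays, and its difference was 0.37 log2 units (SE 0.23, adjusted p = 0.399, limma). Ticam1, the adaptor of Tlr3 and of Tlr4 in endosomes, lay just outside the threshold in the other direction. It read 8.39, 8.50 and 8.34 in CBAxB6-TGFbeta kidneys, against 8.69, 8.74 and 8.87 in B6-TGFbeta kidneys, a difference of -0.36 log2 units (SE 0.10, adjusted p = 0.0601, limma). Irak2 did not overlap between the groups and had a difference of -0.14 log2 units, with an adjusted p of 0.474 (limma). Tirap, Irak1, Ticam2 and Ly96, the lipopolysaccharide-binding partner of Tlr4, differed by -0.06 to 0.003 log2 units. The median of the 9 genes was 0 log2 units.

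**Figure D2:**
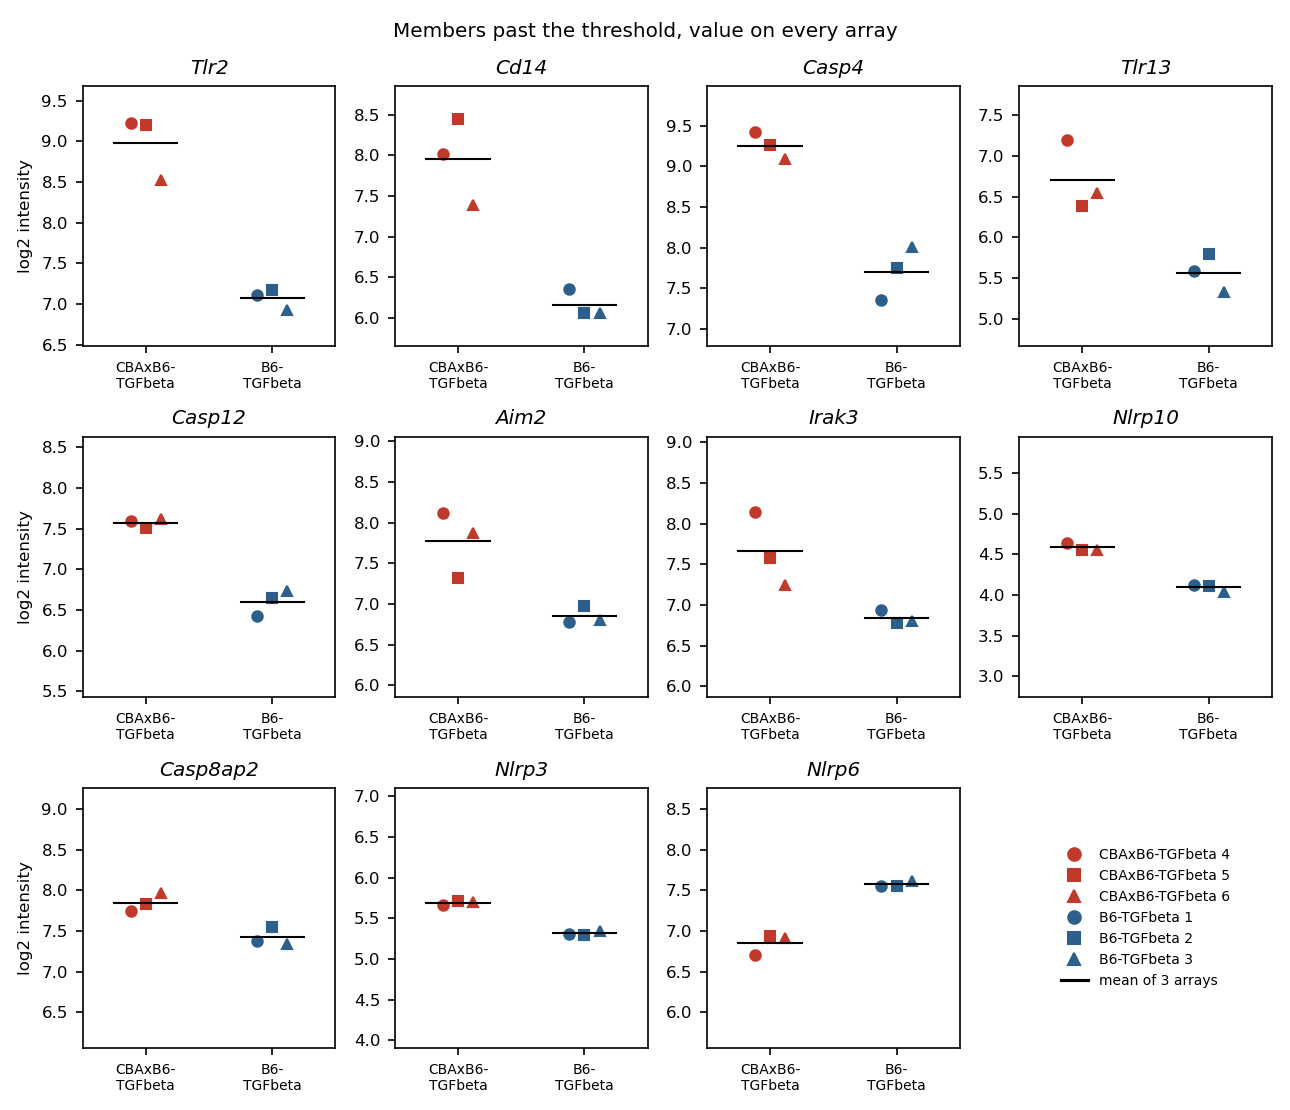
Log2 intensity of the 11 passing members on every array, CBAxB6-TGFbeta on the left in red and B6-TGFbeta on the right in blue, with the mean of 3 arrays as a line. Every panel spans the same number of log2 units, and in each the groups are apart, with the CBAxB6-TGFbeta arrays lower for Nlrp6 alone.

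The cytosolic NOD receptors, which bind fragments of bacterial cell wall, did not pass. Nod1 had a difference of -0.12 log2 units (SE 0.12) and Nod2 one of 0.04 (SE 0.10), and both overlapped between the groups. Their adjusted p-values were 0.644 and 0.860 (limma), and neither had an unadjusted p under 0.05.

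Among the 11 inflammasome sensors and their adaptor, 3 rose, 1 fell and 7 missed the threshold, around a median of 0.175 log2 units. Aim2 binds double-stranded DNA in the cytosol. It read 8.12, 7.31 and 7.87 log2 units in CBAxB6-TGFbeta kidneys, against 6.78, 6.98 and 6.80 in B6-TGFbeta kidneys. The groups did not overlap, although replicate 5 of CBAxB6-TGFbeta came near replicate 2 of B6-TGFbeta. The difference was 0.92 log2 units (SE 0.18), 1.89-fold, with an adjusted p of 0.0190 (limma). Nlrp3 responds to many forms of cell damage. It read 5.66, 5.71 and 5.71 in CBAxB6-TGFbeta kidneys, against 5.31, 5.29 and 5.34 in B6-TGFbeta kidneys, and the arrays within each group were nearly level. The difference was 0.38 log2 units (SE 0.09), 1.30-fold, with an adjusted p of 0.0338 (limma). Nlrp10 has the fold of its family without the ligand-sensing repeats. It read 4.65, 4.56 and 4.56 in CBAxB6-TGFbeta kidneys, against 4.13, 4.12 and 4.04 in B6-TGFbeta kidneys, which is among the dimmest signals on the array. The difference was 0.49 log2 units (SE 0.09), 1.41-fold, with an adjusted p of 0.0134 (limma).

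Nlrp6, known best as a sensor of the gut epithelium, was the single member that fell. It read 6.70, 6.93 and 6.92 log2 units in CBAxB6-TGFbeta kidneys, against 7.55, 7.56 and 7.62 in B6-TGFbeta kidneys. All 3 CBAxB6-TGFbeta arrays were below all 3 B6-TGFbeta arrays. The difference was -0.73 log2 units (SE 0.10), a ratio of 0.605, with an adjusted p of 0.00375 (limma). Beside this, 10 of 12 proximal tubule markers fell in CBAxB6-TGFbeta kidneys and none rose, around a median of -1.27 log2 units, and their part in the fall of Nlrp6 was not tested. The lowest reading of any of these markers was 6.73 log2 units. Nlrp6 passed in the polished fit without CBAxB6-TGFbeta replicate 6, at -0.75, and in no other, with adjusted p up to 0.143 (limma). Leaving out B6-TGFbeta replicate 1 or 3 also cost it the call in the averaged fits, at -0.59 and -0.51. Without CBAxB6-TGFbeta replicate 4 the averaged difference was -0.45 and passed.

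Leaving out arrays also moved the calls of the sensors that rose. Nlrp10 passed in the polished fit without CBAxB6-TGFbeta replicate 6, at 0.49 log2 units, and in no other, with adjusted p up to 0.129 (limma). Aim2 and Nlrp3 passed in none of the polished fits, with adjusted p up to 0.310 and 0.333 (limma). The polished difference of Nlrp3 was 0.23 log2 units without CBAxB6-TGFbeta replicate 5, 0.24 without replicate 6 and 0.27 to 0.32 in the other 4 fits. In the averaged fits Aim2 passed in 2 of 6, Nlrp3 in 3 and Nlrp10 in 1. The averaged differences were 0.67 to 1.15 log2 units for Aim2, 0.46 to 0.64 for Nlrp3 (0.64 without CBAxB6-TGFbeta replicate 6, and 0.57 and 0.58 without B6-TGFbeta replicates 2 and 3) and 0.39 to 0.51 for Nlrp10.

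Pycard, the adaptor that joins Nlrp3 and Aim2 to caspase-1, did not pass. It read 6.82, 6.83 and 6.82 log2 units in CBAxB6-TGFbeta kidneys, against 6.88, 6.84 and 6.68 in B6-TGFbeta kidneys. Its difference was 0.02 log2 units (SE 0.10, adjusted p = 0.925, limma). Nlrc4 and its partners Naip2 and Naip5, which detect flagellin and bacterial secretion needles, differed by 0.17 to 0.22 log2 units and overlapped between the groups. Of the 3 neighbouring Nlrp1 genes, Nlrp1a had 0.33 log2 units (SE 0.13, adjusted p = 0.189, limma) with groups that did not overlap. Nlrp1b had 0.17 and Nlrp1c had -0.03 log2 units. Members of the Nlrp1, Naip and Nlrp4 families are close in sequence, so their probe sets may respond to more than 1 of them, and single values are uncertain.

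Another 12 Nlrp genes, Nlrp2, Nlrp5, Nlrp14 and those of the Nlrp4 and Nlrp9 groups, are known mainly from oocytes, testis and the early embryo. None of the 12 passed limma's test, none had an unadjusted p under 0.05 and none was without overlap. Their differences ran between -0.07 for Nlrp2 and 0.20 for Nlrp4c, with a median of 0.06 log2 units. Of all members, 23 lie in the dimmest 25% of genes, and Nlrp3 and Nlrp10 are the 2 of these that passed.

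Inflammatory caspases had the highest median of any role, 0.97 log2 units over 3 genes, of which 2 rose and 1 did not pass. Casp4 is the mouse gene for caspase-11, which binds lipopolysaccharide in the cytosol and cleaves gasdermin D. It read 9.42, 9.27 and 9.08 log2 units in CBAxB6-TGFbeta kidneys, against 7.36, 7.75 and 8.01 in B6-TGFbeta kidneys. The lowest CBAxB6-TGFbeta array was more than 1 log2 unit above the highest B6-TGFbeta array. The difference was 1.55 log2 units (SE 0.16), 2.93-fold, with an adjusted p of 0.00100 (limma). Casp12, a caspase linked to the endoplasmic reticulum, read 7.59, 7.51 and 7.62 in CBAxB6-TGFbeta kidneys, against 6.43, 6.65 and 6.74 in B6-TGFbeta kidneys. The groups did not overlap, and the CBAxB6-TGFbeta arrays were nearly level. The difference was 0.97 log2 units (SE 0.11), 1.96-fold, with an adjusted p of 0.00119 (limma). In the polished fits Casp4 passed without CBAxB6-TGFbeta replicate 6, at 1.65 log2 units, and in no other, with adjusted p up to 0.0872, and Casp12 passed in none, with adjusted p up to 0.0630 (limma).

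Casp1, the caspase that Nlrp3 and Aim2 activate, is a direct neighbour of Casp4 on the chromosome, and Casp12 is the neighbour of Casp4 on the other side. Casp1 read 6.50, 5.84 and 5.96 log2 units in CBAxB6-TGFbeta kidneys, against 5.11, 5.60 and 5.92 in B6-TGFbeta kidneys. The groups overlapped, since replicate 3 of B6-TGFbeta was above replicate 5 of CBAxB6-TGFbeta. Its difference of 0.55 log2 units (SE 0.22) had an adjusted p of 0.187 (limma). On the B6-TGFbeta arrays, Casp1, Casp4 and Casp12 were all lowest on replicate 1 and highest on replicate 3. They shared no such order on the CBAxB6-TGFbeta arrays, where Casp1 and Casp4 were highest on replicate 4 and Casp12 on replicate 6. There Casp1 and Casp12 were lowest on replicate 5 and Casp4 on replicate 6.

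The 4 apoptotic caspases on the list did not pass, around a median of -0.03 log2 units, and Casp8 was the 1 with an unadjusted p under 0.05. Casp8, which starts apoptosis at death receptors, read 9.53, 9.67 and 9.57 in CBAxB6-TGFbeta kidneys, against 9.40, 9.26 and 9.31 in B6-TGFbeta kidneys. The groups did not overlap, but the difference was small at 0.27 log2 units (SE 0.10), with an adjusted p of 0.133 (limma). Casp9, the caspase of the mitochondrial route, had -0.12 log2 units, Casp6 had -0.05 and Casp2 had -0.01. Of 2 further genes that the name rule took in, Casp14, a caspase of the skin, had 0.11 and did not pass. Casp8ap2 is no caspase but a nuclear protein needed for making histone transcripts. It read 7.74, 7.83 and 7.97 in CBAxB6-TGFbeta kidneys, against 7.38, 7.55 and 7.35 in B6-TGFbeta kidneys, without overlap. Its difference of 0.43 log2 units (SE 0.11), 1.34-fold, was the one just inside the threshold, with an adjusted p of 0.0424 (limma). Casp8ap2 passed in none of the polished fits, with adjusted p up to 0.290, and in 1 of the 6 averaged fits, with adjusted p up to 0.142 (limma). The polished difference was 0.26 log2 units without B6-TGFbeta replicate 3, 0.28 without CBAxB6-TGFbeta replicate 6 and 0.38 to 0.48 in the other 4 fits.

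Each gene value summarises several probe sets, and 6 of the 11 passing members had every probe set in the direction of the gene. These were Casp4 with 9, Casp8ap2 with 11, Aim2 with 5, Nlrp10 and Tlr13 with 4 each, and Cd14 with 3. This counts signs only, and the smallest differences were 0.01 log2 units in Casp8ap2 and 0.05 in Nlrp10. The brightest probe set of Aim2 differed by 1.37 log2 units but overlapped between the groups, with an adjusted p of 0.460 when taken alone (limma). In Cd14 the single probe sets ran over 1.49 to 2.49 log2 units and in Casp4 over 0.38 to 2.21. Tlr2 had 4 probe sets between 1.35 and 2.64 log2 units and 1 at -0.08, which read 8.16, 8.28 and 7.72 in CBAxB6-TGFbeta kidneys, against 8.08, 7.97 and 8.36 in B6-TGFbeta kidneys. Nlrp3 had 16 of 17 above 0, the highest at 2.59 log2 units with readings of 5.81, 5.94 and 5.26 in CBAxB6-TGFbeta kidneys, against 2.83, 3.04 and 3.35 in B6-TGFbeta kidneys. In Nlrp6, 10 of 11 were below 0, between -1.36 and -0.08, and 1 stood at 0.30. The brightest probe set of Nlrp6 differed by -0.21 log2 units and overlapped between the groups. Casp12 had 11 of 12 and Irak3 had 13 of 14 above 0. In Casp1, 8 of 11 were above 0, and the range was -0.77 to 1.35. The backgrounds can differ in sequence under a probe, which moves a single probe set, and this was not tested.

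**Figure D3:**
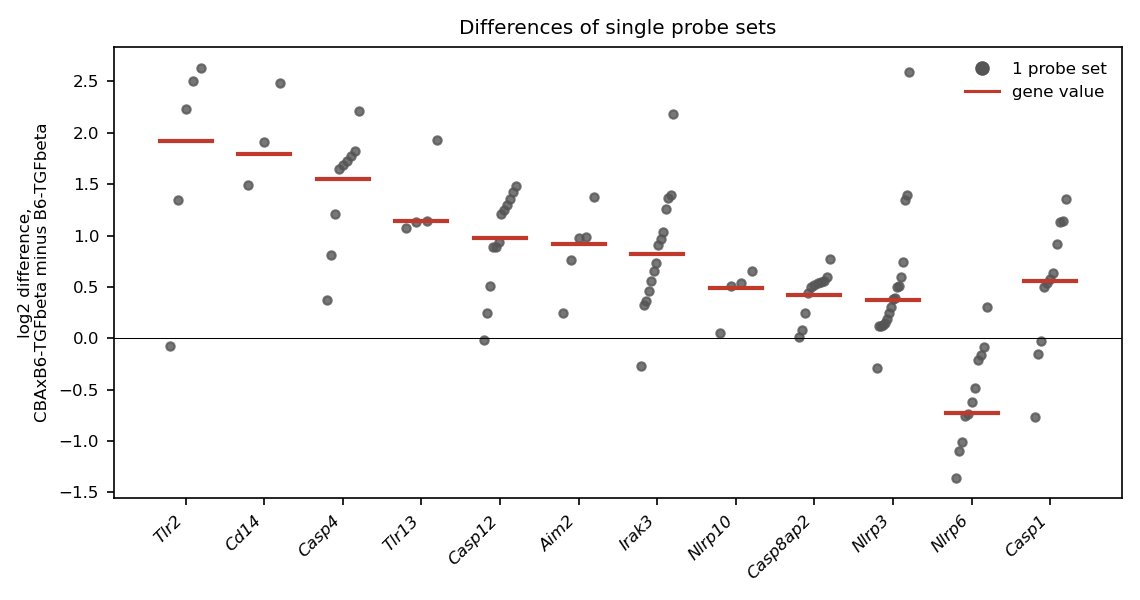
Log2 difference, CBAxB6-TGFbeta minus B6-TGFbeta, of every single probe set (grey points) and of the gene value (red line) for the 11 passing members and Casp1. Points of Casp4 and Cd14 all lie above 0, while Tlr2, Nlrp3 and Nlrp6 each have 1 probe set on the other side of 0.

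Genes around the members were counted in 6 pathway lists, again from the test over all genes. Of 28 feedback and target genes of NF-kB and AP-1, 12 rose, 1 fell and 15 missed the threshold, around a median of 0.46 log2 units. The chemokine gene Ccl2 differed by 2.51 log2 units, Ccl5 by 1.30 and Cxcl2 by 1.29, and Nfkbiz, a regulator of NF-kB, by 0.91. The one that fell, named after its value was seen, was Sod2, the mitochondrial superoxide dismutase, at -0.63. Of 32 genes of receptor-proximal signalling, 3 rose, 1 fell and 28 missed the threshold, around a median of 0.08. They were Birc3, an inhibitor of apoptosis, at 1.10, Lbp, which carries lipopolysaccharide to Cd14, at 1.20, Scarb2 at 0.47, and Sigirr, a brake on interleukin-1 receptors, at -0.38. Whether these shares differ between the lists was not tested.

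Among 18 inflammasome products and pore formers, 3 rose and 15 missed the threshold, around a median of 0.19 log2 units. Il1b, the main substrate of caspase-1, read 6.65 to 7.08 log2 units in CBAxB6-TGFbeta kidneys, against 5.96 to 6.15 in B6-TGFbeta kidneys, without overlap. Its difference was 0.85 log2 units (SE 0.13) with an adjusted p of 0.00551 (limma). The others that rose were Il33, an alarmin, at 1.03 and Il1rn, the natural blocker of the interleukin-1 receptor, at 1.80 log2 units. Of 21 endogenous ligands and carriers, 7 were higher and 14 did not pass. The fibrinogen chains Fgg, Fgb and Fga differed by 4.04, 3.14 and 2.57 log2 units and Vcan, a matrix proteoglycan that Tlr2 can bind, by 2.20. Among 17 RNA and DNA sensors outside the members, Tmem173, the adaptor of cytosolic DNA sensing known as STING, was higher at 1.13, and Mavs, the adaptor of RNA sensing, was lower at -0.69. The other 15 did not pass, and the list's median was -0.02. Of 37 death regulators around the caspases, Birc3, which is also in the receptor-proximal list, rose and 36 missed the threshold, around a median of 0.01.

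Markers of several cell types differed between the groups beside the members. Of 17 macrophage and monocyte markers, 10 rose, 1 fell and 6 missed the threshold, around a median of 0.665 log2 units. Their summed linear intensity was 10363, 6463 and 8206 on CBAxB6-TGFbeta replicates 4, 5 and 6, against 4095, 4986 and 4334 on B6-TGFbeta replicates 1, 2 and 3. The scavenger receptor gene Msr1 differed by 2.19 log2 units, Mrc1 by 1.56 and the monocyte chemokine receptor gene Ccr2 by 2.34, while Mertk, which clears dying cells, fell by 0.78. Replicate 4 had the highest sum. Of the 10 members that rose, it was also the highest array for Tlr2, Casp4, Tlr13, Nlrp10, Aim2 and Irak3, and not for Cd14, Casp12, Nlrp3 or Casp8ap2. Replicate 6 had the next highest sum and replicate 5 the lowest of this group, an order that only Tlr13 and Aim2 followed. Tlr2, Casp4, Irak3 and Cd14 were lowest on replicate 6 within this group. The part of these markers in the differences of the members was not tested. The lowest reading of any of them was 4.78 log2 units, on a scale with no true 0.

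Other blood cell markers were counted in the same way. Of 13 neutrophil markers 3 were higher, Mmp8 at 0.95, Retnlg at 0.68 and Il8rb at 1.26 log2 units, and their sum was 598 to 672 in CBAxB6-TGFbeta kidneys, against 467 to 528 in B6-TGFbeta kidneys. Of 10 dendritic cell markers 3 were higher, Itgax at 0.91, Cd209a at 0.83 and Flt3 at 0.47, and 7 did not pass. Of the 10 differences 7 were positive, while Zbtb46 had -0.27 without overlap between the groups and did not pass. The sums of the 10 markers were 1116 to 1245 in CBAxB6-TGFbeta kidneys, against 911 to 1060 in B6-TGFbeta kidneys. Of 14 T and NK cell markers, Cd2 was higher at 0.41 and 13 did not pass. Of the 14 differences 11 were positive, while Cd8a had -0.27 without overlap between the groups and did not pass. The sums of 722 to 827 in CBAxB6-TGFbeta kidneys and 720 to 756 in B6-TGFbeta kidneys overlapped. None of 9 B and plasma cell markers passed limma's test and 2 had an unadjusted p under 0.05. Their sums were 589 to 630 in CBAxB6-TGFbeta kidneys and 582 to 612 in B6-TGFbeta kidneys, and the differences with the smallest p were -0.34 for Blnk and 0.32 for Cd79a.

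Markers of the kidney's own cells differed too. Of 12 markers of injured tubule, 7 were higher and 5 did not pass, with summed intensities of 13431 to 16523 in CBAxB6-TGFbeta kidneys, against 8371 to 8584 in B6-TGFbeta kidneys. Krt20 differed by 3.18 log2 units, Havcr1 by 2.70, Lcn2 by 2.17 and Vcam1 by 1.94. Of 12 proximal tubule markers, 10 were lower, among them Miox at -2.57, Slc34a1 and Slc5a2 at -1.88 each, and Slc13a3 at -1.86. Of 10 endothelium markers, 5 were lower, with Kdr at -0.57 and Icam2 at -0.48, and 5 did not pass. Of 10 fibroblast and smooth muscle markers, Lum at 1.54 and Col3a1 at 0.60 were higher and 8 did not pass. Their median was 0.43 log2 units, and 8 of the 10 differences were positive. Pdgfra at -0.11 and Myh11 at -0.18 lay below 0, and Pdgfrb stood at 0.01. None of the 12 fat and adrenal markers passed limma's test, and 2 had an unadjusted p under 0.05. The part of these markers in the differences of the members was not tested.

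**Figure D4:**
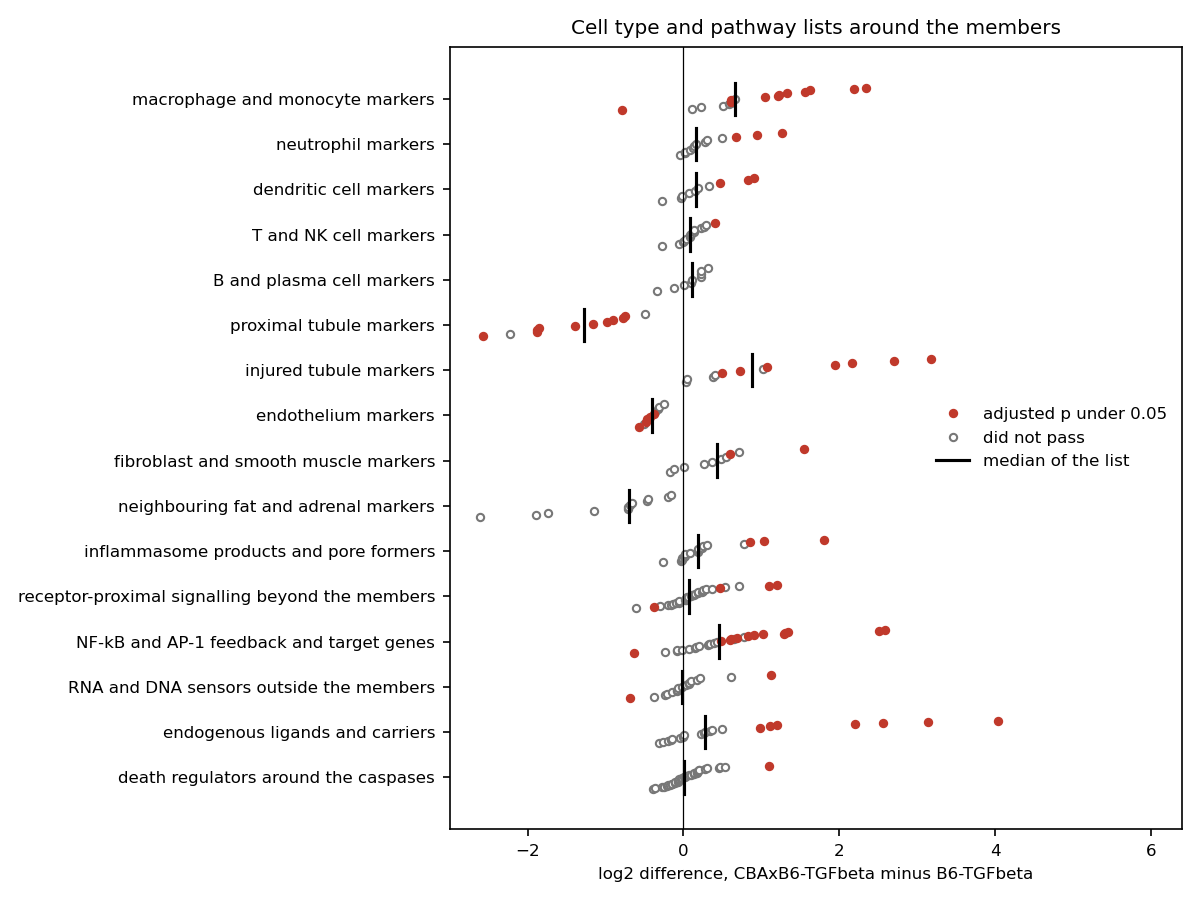
Log2 difference, CBAxB6-TGFbeta minus B6-TGFbeta, of each gene in 16 cell type and pathway lists, with the median of each list as a bar and passing genes filled red. Macrophage and injured tubule medians lie at 0.665 and 0.876, the proximal tubule median at -1.27, and Birc3, at 1.10, is the only filled point among the death regulators.

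The differences of the passing members kept their direction under every alternative computed, while their calls often did not hold. Over 339 alternative values of these 11 genes, 183 stayed on the same side of the threshold, 156 lost it and none changed sign. For part of these values the sign could not change. The filter of dim genes and the changes of moderation leave each difference as it was. Array weights, or leaving out arrays with gene values kept, cannot reverse a gene whose groups do not overlap, as in all 11. The 11 also passed on these same arrays, so their unchanged sign is no separate check. Tlr2 taken as the median of its probe sets had 0.51 log2 units with an adjusted p of 0.176 (limma), against 2.51 for its brightest probe set. Irak3 on its brightest probe set had 0.37 log2 units with an adjusted p of 0.663, and Nlrp6 had -0.21 with one of 0.723 (limma). Of the 11, only Tlr2, Cd14, Casp4 and Casp12 passed on the brightest probe set alone.

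**Figure D5:**
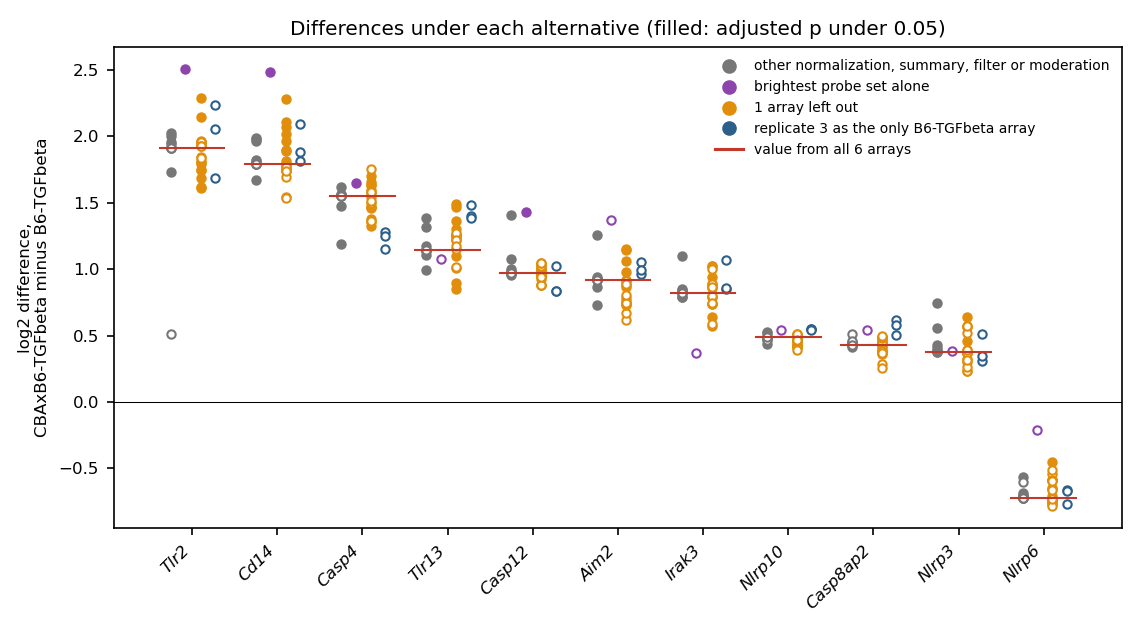
Log2 difference, CBAxB6-TGFbeta minus B6-TGFbeta, of the 11 passing members under each alternative, with filled points for an adjusted p under 0.05, open points otherwise and a red line for the value from all 6 arrays. Orange points leave out 1 array, with the gene values polished again, kept or averaged, and no point of a gene lies across 0 from its line.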

How the data were processed

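Total kidney RNA for the 6 arrays was extracted with Trizol and labelled with biotin, per the labels' protocols. The deposited log2 intensities are normalized values of 241576 probe sets, with RMA and Partek named in the submitters' processing notes. Of these, 212097 carry 1 gene symbol in the platform annotation, 4475 several and 25004 none. Probe sets of 1 symbol were combined by Tukey median polish into 20416 genes. Differences, CBAxB6-TGFbeta minus B6-TGFbeta, were tested with limma 3.58.1 in R 4.3.3 (lmFit, eBayes, two-sided), with Benjamini-Hochberg adjustment over all genes and a threshold of 0.05. The procedure was also run on simulated data with random noise and the same shift in every probe set of a gene. Real probe sets of a gene differed in size and sign, which that run did not include.

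The labels do not say that the arrays are separate animals. The p-values therefore rest on the spread among these samples, which may not be that among animals. In the moderated test each gene's variance is also drawn toward that of all genes, so it is not the gene's own spread alone. With 3 arrays a group the precision is limited. Members and lists were chosen with earlier results of these data known. Every passing member is named with its array values, members with an unadjusted p under 0.05 by their difference, others by role with at most 4 names, and up to 4 passing genes of each list by smallest p (2 where none passed). Alternatives changed the normalization, probe set summary, filter, moderation and arrays used. Probe sets of several symbols were left out of gene values.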

Additional observations from a re-analysis of the deposited data

How the results depend on the processing

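With all 6 arrays, 10 members passed as higher and 1 as lower. The count of higher members was 4 with the brightest probe set alone and 1 without moderation of the variance, where Nlrp3 passed. With each array left out and the probe sets polished again, 0 to 4 members were higher and 0 to 1 lower. With gene values of 6 arrays kept, 4 to 9 were higher and 1 lower, and with the mean of the probe sets 5 to 9 were higher and 0 to 1 lower, both settings chosen after seeing the data. With replicate 3 standing alone for B6-TGFbeta, 0 were higher and 0 lower whether gene values were polished again, kept or averaged, with 13 to 15 members at an unadjusted p under 0.05 (limma). The count of lower members was 0 with the median of the probe sets, 0 with the brightest probe set and 0 without moderation, and 2 without the dimmest 25% of genes, where Ticam1 joined Nlrp6. A second quantile normalization, median centring, trended and robust moderation and array weights each left 10 higher and 1 lower. Median centring moved the share of higher calls among all passing genes to 48.3%, against 40.2%, and moved the median of all genes by under 0.1 log2 units. Of 1312 alternative values of the members that did not pass, 9 passed and 194 had the other sign. Causes of these changes were not tested. Tlr8 and Tlr12 rest on 1 probe set each, so agreement between probe sets could not be seen for them. Their standard errors were 0.20 and 0.11 log2 units, and the largest of any member was 0.33, for Tlr7. The dim genes Nlrp3 and Nlrp10 had standard errors of 0.09 each. All these standard errors are moderated, with each gene's variance drawn toward that of all genes. The standard deviations within either group were only 0.03 log2 units for Nlrp3 and 0.05 for Nlrp10, so 0.09 is not their own measured spread. No paired analysis was possible because the groups share no replicate numbers.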

Other observations

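Probe sets that the annotation gives to several genes were not part of any gene value, and 4 of them name a member. Their differences, CBAxB6-TGFbeta minus B6-TGFbeta, ran over 0.185 to 0.81 log2 units. The highest is shared by Nlrp4f and Nlrp4g and read 6.005, 5.047 and 6.736 on CBAxB6-TGFbeta arrays, against 5.847, 5.593 and 3.919 on B6-TGFbeta arrays, with overlap. The other one of this pair differed by 0.195, and those shared with Naip5 by 0.185 and 0.417 log2 units. Another 2 such probe sets name Naip3, which matches the name rule but has no probe set of its own among the genes analysed here, and differed by 0.007 and 0.722.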
